A study of Mus musculus with 9 samples.

Results

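The aryl hydrocarbon receptor gene Ahr and 7 genes known as its targets were followed through 3 populations of CD8+ T cells. The members were Ahr, Ahrr, Cyp1a1, Cyp1b1, Tiparp, Nqo1, Scin and Lpxn, matched by gene symbol to 8 of the 53679 gene identifiers in the deposited count table. The cells came from C57BL/6 mice and were activated for 3 days, and total RNA was sequenced. Every one of 3 mice, numbered 715, 725 and 728, gave 1 library of untreated Tc0 cells, 1 of Tc0 cells with CoA (coenzyme A, here Tc0 + CoA) and 1 of untreated Tc22 cells, so each group held 3 libraries. The labels give no age, sex or genotype beyond the strain, and the extraction protocol names a vehicle as the counterpart of CoA while the titles say untreated. Tc22 is the usual name for CD8+ T cells skewed towards making interleukin-22, and Tc0 for the unskewed culture. How the Tc22 cells were skewed is not given in the labels.

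The aryl hydrocarbon receptor is a transcription factor that rests in the cytosol in a complex with chaperones such as HSP90 and p23. A ligand, such as a tryptophan metabolite or a dioxin, sends it to the nucleus, where it pairs with ARNT and binds DNA at a response element with the core GCGTG. Among its targets are enzymes that break its ligands down (the cytochromes P450 of the CYP1 family) and proteins that shut it off (AHRR, which competes for ARNT, and TIPARP, an ADP-ribosyltransferase that marks the receptor for loss). The receptor is best known in T cells for its part in interleukin-22 production.

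The promoters are shown because the receptor's core element can be read in them beside the levels that follow. RefSeq promoters (GRCm38.p6, 250 bases before to 50 bases after the start) were matched for 7 of the 8 members, all but Ahr. The core GCGTG, searched on both strands, stood in 6 of the 7, against 32.4% of 32851 promoters of the same length. Ahrr held 3 matches, 27, 82 and 107 bases upstream of the start, and 3.91% of all promoters held 3 or more. Capitals mark the matches, and CACGC is a match on the opposite strand. The upstream regions of the repressor gene Ahrr, of the CYP1 genes and of Nqo1, which held no match, were as follows.
Ahrr, chr13:74292282-74292581, minus strand: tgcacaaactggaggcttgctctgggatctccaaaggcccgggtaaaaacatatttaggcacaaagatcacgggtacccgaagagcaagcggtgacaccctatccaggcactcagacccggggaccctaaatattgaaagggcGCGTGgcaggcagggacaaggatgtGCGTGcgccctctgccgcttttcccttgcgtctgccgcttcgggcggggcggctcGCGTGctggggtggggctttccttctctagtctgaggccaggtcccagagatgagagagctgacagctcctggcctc
Cyp1a1, chr9:57697363-57697662, plus strand: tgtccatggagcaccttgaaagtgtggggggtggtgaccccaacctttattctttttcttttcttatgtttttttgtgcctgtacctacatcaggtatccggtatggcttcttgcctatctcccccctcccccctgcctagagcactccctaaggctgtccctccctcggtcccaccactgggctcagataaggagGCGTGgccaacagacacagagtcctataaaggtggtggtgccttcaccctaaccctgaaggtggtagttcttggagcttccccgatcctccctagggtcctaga
Cyp1b1, chr17:79715012-79715311, minus strand: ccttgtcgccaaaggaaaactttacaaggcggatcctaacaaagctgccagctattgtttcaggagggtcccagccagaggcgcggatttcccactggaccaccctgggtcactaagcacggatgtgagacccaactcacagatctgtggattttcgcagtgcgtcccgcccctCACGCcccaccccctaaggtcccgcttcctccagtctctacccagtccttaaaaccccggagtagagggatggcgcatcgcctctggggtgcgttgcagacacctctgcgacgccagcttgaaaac
Nqo1, chr8:107403156-107403455, minus strand: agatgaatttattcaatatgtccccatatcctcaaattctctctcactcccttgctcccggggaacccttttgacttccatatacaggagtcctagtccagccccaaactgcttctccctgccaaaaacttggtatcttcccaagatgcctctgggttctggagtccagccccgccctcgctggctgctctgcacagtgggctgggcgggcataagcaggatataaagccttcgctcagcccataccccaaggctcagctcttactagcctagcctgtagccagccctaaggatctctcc

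The single matches of Tiparp, Scin and Lpxn lay 170, 35 and 13 bases upstream of the start, and those of Cyp1a1 and Cyp1b1 54 and 76 bases upstream. The 29 bases around the matches of Tiparp, Scin and Lpxn are shown because these 3 genes differ in direction below.
Tiparp, chr3:65528265-65528293, plus strand: ctccgtccggagCACGCgcacgggaggcg
Scin, chr12:40134247-40134275, minus strand: gcccgggttcggGCGTGgctgttggcttc
Lpxn, chr19:12796168-12796196, plus strand: agtcgtgaggcgCACGCgcagggccaact
The longer form TNGCGTG, which contains the core, was matched in Ahrr alone among the 7, against 5.07% of all promoters. The antioxidant element TGACNNNGC, bound by NRF2, was matched in 0 of the 7, against 12.4% of all promoters. The GC content of the 7 promoters ran from 52.0% (Scin) to 73.7% (Tiparp), and a match is a run of letters in this window and no more.

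Gene counts summed to between 21841034 and 36254631 per library. Levels are given as CPM, the count of a gene relative to the TMM-scaled size of its library, and tests are edgeR's quasi-likelihood test with the mouse as a block over 15348 genes, with Benjamini-Hochberg adjustment and a threshold of 0.05. Of the CD8 T cell markers all 6 were present in every group, with summed levels of 1855 to 2334 CPM in Tc0, 1471 to 1870 in Tc0 + CoA and 1779 to 2213 in Tc22 libraries. With CoA 4 of the 6 fell, Cd3d (log2 fold change -0.79, adjusted p = 0.00616), Cd3e (-0.72, 0.00598), Cd3g (-0.72, 0.0231) and Trac (-0.48, 0.00909), while Cd8a (-0.06, 0.742) and Cd8b1 (adjusted p = 0.983) did not pass. The part of this in the CoA results was not tested. The 5 CD4 and regulatory T cell markers, carried by Ctla4 and Ikzf2, summed to 400 to 650 CPM in Tc0, 160 to 298 with CoA and 234 to 413 in Tc22. Cd4 itself stood between 0.140 and 1.37 CPM and was the only one of the 5 called in Tc22 against Tc0 (log2 fold change 1.59, adjusted p = 0.0484), where Ctla4 had -0.98 (0.121). With CoA Ctla4 was called lower (-1.38, adjusted p = 0.0134 by edgeR), and Ikzf2 was not called (-0.68, 0.0744). Single libraries weighed on the number of genes called in Tc22 against Tc0. It was 565 with all libraries, 2669 on omitting the Tc0 library of mouse 728 and 201 on omitting the Tc22 library of mouse 725, while the members called were 5, 5 and 4. Results of members and pathway genes that rest on 1 library are given with and without it. Calls of cell type markers are given with all libraries only. All 8 members passed the low-count filter, but Cyp1a1 and Cyp1b1 reached its minimum in none of the Tc0 libraries and Scin in 1, so these genes were tested because they were higher elsewhere.

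Ahr (ENSMUSG00000019256, chromosome 12, 35497974 to 35535038, minus strand, GRCm38) was lowest in Tc22 cells and highest in Tc0 cells with CoA. Its level was 10.2, 9.28 and 8.53 CPM in the Tc0 libraries of mice 715, 725 and 728. The Tc0 + CoA libraries held 12.8, 15.9 and 11.7 CPM and the Tc22 libraries 3.64, 3.82 and 3.77 CPM. No library of one group overlapped with another group, and the Tc22 libraries lay within 1.05-fold of each other. In Tc22 cells Ahr fell 2.49-fold against Tc0 (log2 fold change -1.32, SE 0.16, adjusted p = 0.00308 by edgeR), lower in 3 of 3 mice. With CoA it rose 1.43-fold (0.52, SE 0.16, adjusted p = 0.0381), higher in 3 of 3 mice. The direct comparison of Tc22 with Tc0 + CoA gave a 3.57-fold lower level (-1.84, SE 0.16, adjusted p = 0.000224). In bulk RNA, fewer cells that express a gene and less RNA per cell cannot be told apart. The fall in Tc22 cells passed in every leave-one-out fit (adjusted p from 0.00183 to 0.0223).

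The rise of Ahr with CoA was lost in 7 of 9 leave-one-out fits. These were the fits without any of the Tc0 libraries (adjusted p from 0.0524 to 0.195), without the Tc0 + CoA libraries of mice 725 or 728 (0.217 and 0.0995) and without the Tc22 libraries of mice 715 or 725 (0.0654 and 0.0610). It was also lost without the mouse block (0.0907), without the low-count filter (0.0640) and with the compared groups alone (0.0757). A long noncoding gene, Gm48236, overlaps exons of Ahr on the opposite strand and held 0 to 2 counts per library.

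**Figure D1:**
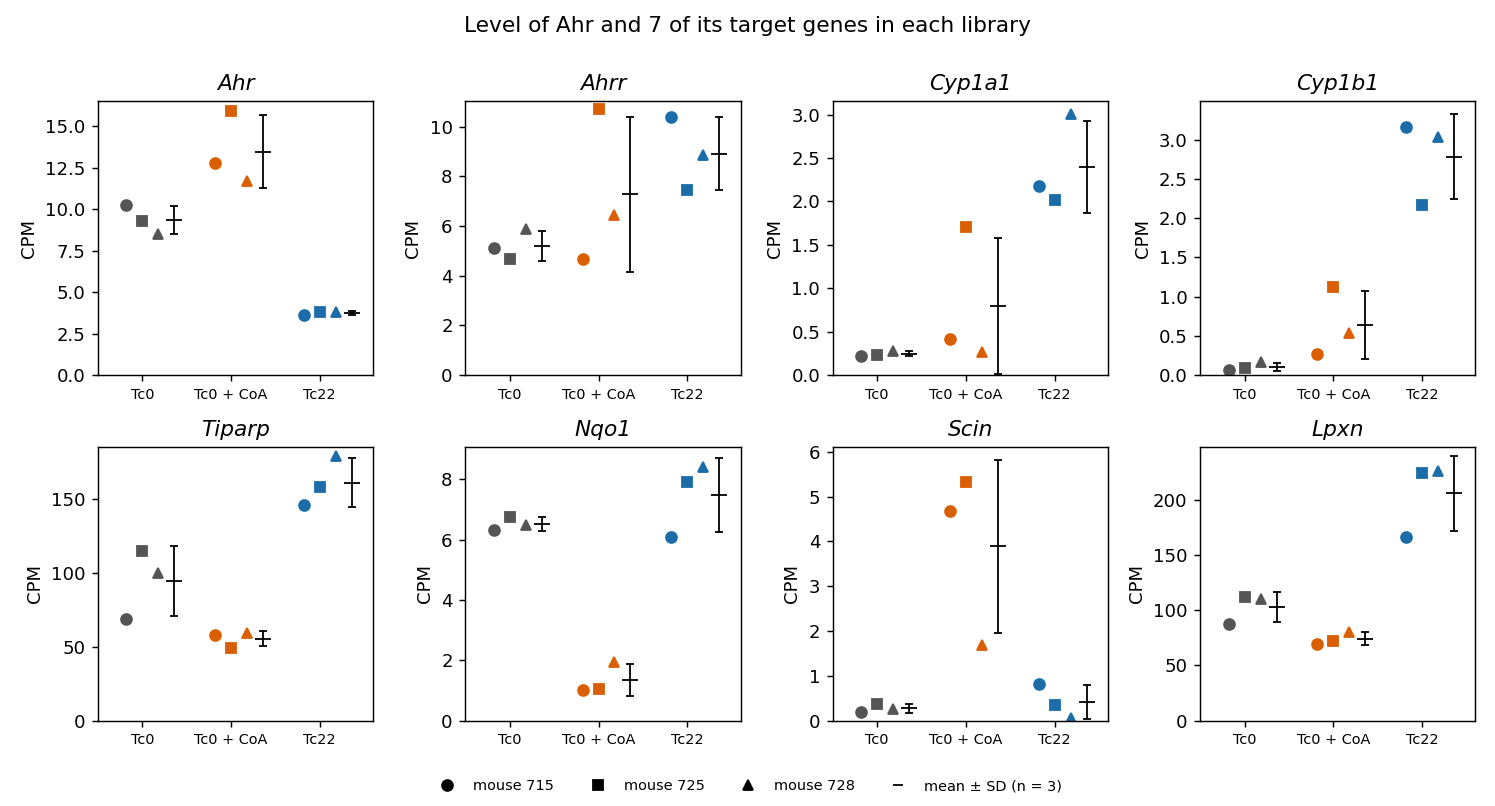
Level in CPM (vertical axes, from 0) of Ahr and its 7 targets in the 9 libraries, by group; symbols mark the mouse, and the bars give the mean and SD of 3 libraries. Ahr is lowest in Tc22 (3.64 to 3.82 CPM), where Cyp1a1, Cyp1b1, Tiparp and Lpxn are highest, while Nqo1 is lowest and Scin highest in Tc0 + CoA.

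Ahrr, the repressor gene (ENSMUSG00000021575, chromosome 13, 74211118 to 74292331, minus strand), did not pass the threshold in any comparison. The Tc0 libraries held 5.10, 4.66 and 5.86 CPM, the Tc0 + CoA libraries 4.67, 10.7 and 6.44 CPM and the Tc22 libraries 10.4, 7.47 and 8.86 CPM. All Tc22 libraries lay above all Tc0 libraries, and the Tc0 + CoA libraries spanned both. The difference of Tc22 from Tc0 was 0.77 on the log2 scale (95% interval 0.14 to 1.40, adjusted p = 0.170 by edgeR). Omitting the Tc0 + CoA library of mouse 725 brought it past the threshold (adjusted p = 0.0433), as did dropping the low-count filter (0.0418). With CoA the difference was 0.45 (interval -0.19 to 1.09, adjusted p = 0.282), and without that same library it was -0.01.

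Cyp1a1 and Cyp1b1 encode the cytochromes P450 through which the receptor's ligands are oxidised, and both were most abundant in Tc22 cells. Cyp1a1 (ENSMUSG00000032315, chromosome 9, 57687928 to 57703824, plus strand) stood at 0.220, 0.233 and 0.275 CPM in the Tc0 libraries of mice 715, 725 and 728, which is 5 to 10 counts. It stood at 0.418, 1.70 and 0.266 CPM in Tc0 + CoA and at 2.18, 2.01 and 3.01 CPM in Tc22 libraries. The Tc22 libraries lay above all others, and the Tc0 + CoA library of mouse 725 lay 6.38-fold above that of mouse 728. In Tc22 cells Cyp1a1 rose 9.69-fold against Tc0 (log2 fold change 3.28, SE 0.56, adjusted p = 0.0114 by edgeR), and within the mice the ratio of CPM values was 9.87, 8.64 and 10.9. Omitting the Tc0 library of mouse 725 ended this call (adjusted p = 0.0633).

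With CoA the difference of Cyp1a1 was 1.56 on the log2 scale (95% interval 0.17 to 2.95, adjusted p = 0.0955), and it was higher in 2 of 3 mice. That value was 0.44 without the Tc0 + CoA library of mouse 725 (adjusted p = 0.614). It passed without that of mouse 728 (2.14, adjusted p = 0.0436) and without the low-count filter (1.54, adjusted p = 0.0168). Tc22 was higher than Tc0 + CoA (1.72, SE 0.50, adjusted p = 0.0266), a call lost without the mouse block (0.0834), without the Tc0 + CoA libraries of mice 715 or 728 (0.0908 and 0.123) and without the Tc22 libraries of mice 715 or 728 (0.0879 and 0.0940). Over the leave-one-out fits this difference ran from 1.14 to 2.85, the highest without the Tc0 + CoA library of mouse 725.

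Cyp1b1 (ENSMUSG00000024087, chromosome 17, 79701537 to 79715061, minus strand) had the largest rise of the members in Tc22 cells. It stood at 0.0630, 0.0933 and 0.165 CPM in Tc0 libraries (2, 2 and 6 counts) and at 3.16, 2.16 and 3.04 CPM in Tc22 libraries (93, 73 and 95 counts). The Tc0 + CoA libraries lay between these groups, at 0.266, 1.12 and 0.533 CPM, with no overlap on either side. Cyp1b1 rose 24.6-fold in Tc22 (log2 fold change 4.62, SE 0.54, adjusted p = 0.00229) and 5.49-fold with CoA (2.46, SE 0.62, adjusted p = 0.0199), each in 3 of 3 mice. Tc22 was also higher than Tc0 + CoA (2.16, SE 0.43, adjusted p = 0.00531 by edgeR). The rise in Tc22 passed in every leave-one-out fit (adjusted p from 0.000233 to 0.0131). The rise with CoA was 1.68 and lost (adjusted p = 0.0807) when the Tc0 + CoA library of mouse 725 was omitted. It was also lost on omitting the Tc0 library of mouse 715 (0.0524) or 725 (0.0875). With the compared groups alone neither CYP1 gene could be tested with CoA, since both passed the low-count filter through the Tc22 libraries.

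The Tc0 + CoA library of mouse 725 held the highest level among the Tc0 + CoA libraries of Ahr, Ahrr, Cyp1a1, Cyp1b1 and Scin, and the lowest of Tiparp. Some markers of myeloid cells, mast cells and basophils were also highest there. The summed markers of CD8 T, CD4 and regulatory T, gamma delta T, innate lymphoid and natural killer and B cells were lowest there among the Tc0 + CoA libraries, as was the full mast cell and basophil sum, which Kit dominates. The 6 macrophage and monocyte markers summed to 14.2 CPM in this library and to between 4.94 and 10.7 CPM in the other 8, with C1qa at 0 counts in every Tc22 library. Lyz2, a lysozyme gene of myeloid cells, stood at 7.63 CPM there and at 0.646 to 4.53 CPM elsewhere, and it rose with CoA (log2 fold change 1.15, adjusted p = 0.0117 by edgeR). Of the other macrophage markers, Cd68 (0.02, adjusted p = 0.963), Itgam (-0.12, 0.779) and Csf1r (1.499, 0.0637) did not pass with CoA, and Adgre1 and C1qa were too low to test. The 5 dendritic cell markers, 1 of them at 0 counts in each group, summed to 5.46 to 9.37 CPM with CoA, again highest there, against 3.73 to 5.005 CPM in Tc0 and 4.36 to 5.85 CPM in Tc22. The 5 mast cell and basophil markers summed to 24.6 to 46.1 CPM in Tc0, 24.8 to 46.5 with CoA and 25.8 to 28.6 in Tc22 libraries. Of these, the 4 other than Kit (set apart after the values were seen, as Kit held most of the sum) reached 4.23 CPM there and 1.67 and 2.40 CPM in the Tc0 + CoA libraries of mice 715 and 728, against 0.409 to 1.12 CPM in Tc0 and 0.272 to 1.24 CPM in Tc22 libraries. All 3 Tc0 + CoA libraries thus lay above all others. Mcpt8, a basophil protease gene, rose with CoA (log2 fold change 2.77, adjusted p = 0.00431 by edgeR). Cpa3 (1.49, adjusted p = 0.0542) and Kit (-0.17, 0.562) did not pass with CoA, and Fcer1a and Ms4a2 were too low to test. Ido1, which encodes a tryptophan-degrading enzyme of myeloid cells, held 32 counts in the Tc0 + CoA library of mouse 725 and 0 to 5 in the other libraries. The part of these cells in the CoA values of the CYP1 genes was not tested. In the Tc22 libraries the macrophage markers summed to 6.73 to 8.38 CPM, against 4.94 to 8.04 CPM in Tc0. Against Tc0, Cd68 was higher (0.74, adjusted p = 0.0927 by edgeR) and Lyz2 lower (-0.68, 0.195) in 3 of 3 mice, and neither passed.

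**Figure D2:**
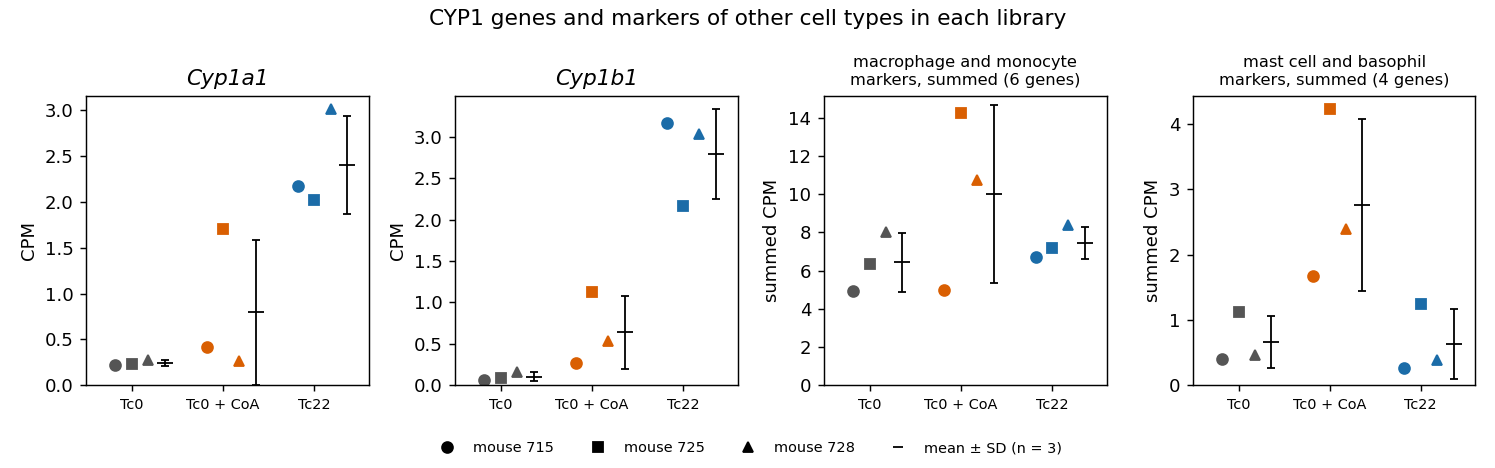
CPM of Cyp1a1 and Cyp1b1, and summed CPM of 6 macrophage and monocyte markers and of 4 mast cell and basophil markers (vertical axes, from 0), in each library by group; symbols mark the mouse and bars the mean and SD of 3 libraries. Within Tc0 + CoA the library of mouse 725 is highest in all 4 panels, at 1.70, 1.12, 14.2 and 4.23 CPM. The Tc22 libraries are the highest in the CYP1 panels and overlap with Tc0 in the marker panels.

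Tiparp, the gene of the receptor's ADP-ribosyltransferase (ENSMUSG00000034640, chromosome 3, 65528410 to 65555518, plus strand), went in opposite directions in Tc22 and with CoA. It stood at 68.6, 115 and 100.1 CPM in the Tc0 libraries of mice 715, 725 and 728. The Tc0 + CoA libraries held 58.3, 49.5 and 59.1 CPM and the Tc22 libraries 147, 158 and 179 CPM, and the 3 groups did not overlap. Tiparp rose 1.72-fold in Tc22 (log2 fold change 0.78, SE 0.16, adjusted p = 0.0258 by edgeR) and fell 1.67-fold with CoA (-0.74, SE 0.16, adjusted p = 0.0107), each in 3 of 3 mice. Tc22 lay 2.88-fold above Tc0 + CoA (1.53, SE 0.16, adjusted p = 0.000381), which passed in every leave-one-out fit (adjusted p from 0.000179 to 0.00377). The overlapping pseudogene 4931440P22Rik on the opposite strand held 6 to 21 counts per library, against at least 1332 of Tiparp.

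Both smaller differences of Tiparp depended on single libraries. The rise in Tc22 ended when any Tc22 library (adjusted p from 0.0634 to 0.104) or the Tc0 library of mouse 715 (0.0832) was omitted, and without the mouse block (0.116). The fall with CoA was lost without the Tc0 + CoA libraries of mice 725 or 728 (0.0599 and 0.0554) or the Tc0 library of mouse 725 (0.0533).

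Lpxn encodes leupaxin, an adaptor protein of the paxillin family, and it followed the same directions as Tiparp. Lpxn (ENSMUSG00000024696, chromosome 19, 12796193 to 12833807, plus strand) stood at 87.2, 112 and 109.9 CPM in the Tc0 libraries, at 69.2, 72.4 and 80.5 CPM with CoA and at 167, 224 and 226 CPM in Tc22. The groups did not overlap, and within the mice the ratio of Tc22 to Tc0 was 1.91, 2.002 and 2.06. It rose 1.99-fold in Tc22 (log2 fold change 0.99, SE 0.10, adjusted p = 0.00119 by edgeR) and fell 1.38-fold with CoA (-0.47, SE 0.10, adjusted p = 0.0110). The rise in Tc22 passed in every leave-one-out fit (adjusted p from 0.000585 to 0.0103). The fall with CoA was lost without the Tc0 + CoA libraries of mice 725 or 728 (0.0782 and 0.0651), the Tc0 library of mouse 725 (0.0672) or the mouse block (0.0799). Paxillin itself, Pxn, had 29.03 ± 11.1 CPM in Tc0, 32.2 ± 7.12 with CoA and 23.7 ± 5.16 in Tc22 libraries (mean ± SD, n = 3), and passed in neither comparison with Tc0.

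Nqo1 encodes a quinone reductase that both the receptor and the antioxidant factor NRF2 are known to induce, and its level fell with CoA. Nqo1 (ENSMUSG00000003849, chromosome 8, 107388225 to 107403206, minus strand) stood at 6.33, 6.76 and 6.47 CPM in the Tc0 libraries of mice 715, 725 and 728, at 1.02, 1.05 and 1.95 CPM with CoA and at 6.08, 7.91 and 8.41 CPM in Tc22. The Tc0 + CoA libraries lay apart from all others, and the Tc0 and Tc22 libraries overlapped. The fall with CoA was 4.99-fold (log2 fold change -2.32, SE 0.23, adjusted p = 0.000704 by edgeR), and the CPM was 6.17, 6.45 and 3.31 times lower within the mice. It passed in every leave-one-out fit (adjusted p from 0.00101 to 0.00685). Between Tc22 and Tc0 the difference was 0.18 (95% interval -0.28 to 0.64, adjusted p = 0.631), so the CYP1 genes passed there and Nqo1 did not; that contrast between genes was not itself tested. Tc22 was 5.66-fold above Tc0 + CoA (2.50, SE 0.23, adjusted p = 0.000253).

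Other NRF2 targets did not share 1 direction with CoA. Of 11 NRF2 targets and regulators 10 were measured, of which 2 rose and 2 fell with CoA (1 to 2 and 1 to 2 in leave-one-out fits), where 12.5% of all genes rose and 12.0% fell. Slc7a11, the cystine transporter gene, rose from 1.996 ± 0.729 to 8.62 ± 1.05 CPM (log2 fold change 2.17, SE 0.22, edgeR adjusted p = 0.000716). Gclm, the modifier subunit of the enzyme that begins glutathione synthesis, fell from 72.2 ± 11.7 to 43.5 ± 3.67 CPM (-0.72, SE 0.13, adjusted p = 0.00663). Srxn1 rose (0.86, adjusted p = 0.0140) and Gclc fell (-0.43, adjusted p = 0.0278). The call of Srxn1 ended when the Tc0 + CoA library of mouse 725, either Tc0 library of mice 715 and 725 or the block was dropped (adjusted p from 0.0519 to 0.0809). That of Gclc was lost with the compared groups alone, without the Tc0 + CoA or Tc0 libraries of mice 715 or 725 or without the block (0.0644 to 0.143). The gene of NRF2 itself, Nfe2l2, stood at 57.7 ± 7.19 CPM in Tc0 and 60.8 ± 5.11 CPM with CoA. In Tc22 against Tc0 only Srxn1 passed (1.18, adjusted p = 0.0106), a call that ended when either of these libraries of mouse 715 or the block was dropped (0.0578 to 0.104).

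Scin encodes scinderin, a calcium-dependent actin-severing protein of the gelsolin family, and it was higher with CoA than in the other groups, where it had 2 to 24 counts per library. Scin (ENSMUSG00000002565, chromosome 12, 40059769 to 40134228, minus strand) stood at 0.189, 0.373 and 0.248 CPM (6, 8 and 9 counts) in the Tc0 libraries of mice 715, 725 and 728. It stood at 4.67, 5.32 and 1.69 CPM (123, 147 and 38 counts) with CoA and at 0.816, 0.356 and 0.0639 CPM (24, 12 and 2 counts) in Tc22. The Tc0 + CoA libraries lay above all others, and the Tc22 libraries spread 12.8-fold around the Tc0 level. Scin rose 13.2-fold with CoA (log2 fold change 3.73, SE 0.48, adjusted p = 0.00218 by edgeR), higher in 3 of 3 mice, with ratios of 24.7, 14.3 and 6.81. The rise passed in every leave-one-out fit (adjusted p from 0.000850 to 0.0136). In Tc22 the difference from Tc0 was 0.43 (95% interval -0.86 to 1.71, adjusted p = 0.693). Its sign turned when mouse 715 gave no Tc0 library (-0.21) or no Tc22 library (-0.42). Tc22 was 9.83-fold below Tc0 + CoA (-3.30, SE 0.45, adjusted p = 0.00119).

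Beside Scin, markers of other cells moved with CoA as well. Mcpt8, Lyz2 and the dendritic cell gene Zbtb46 (log2 fold change 1.06, adjusted p = 0.0139) rose. Zbtb46 held most of the dendritic cell sum. Of the other dendritic cell markers, Flt3 (0.72, adjusted p = 0.403 by edgeR), Itgax (0.35, 0.486) and Xcr1 (-0.35, 0.610) did not pass, and Siglech held 0 counts. Of 4 B cell markers, Ms4a1 stood at 0.304, 0.976 and 0.266 CPM with CoA and at 0 to 0.189 CPM elsewhere, and Pax5 was higher with CoA in 3 of 3 mice. Both were too low to test, as was Cd79a. Cd79b went the other way with CoA, lower in 3 of 3 mice (-0.39, adjusted p = 0.135 by edgeR), and did not pass. The sum of the 4, mostly Cd79b, was 7.05 to 9.76 CPM with CoA, 8.97 to 11.8 CPM in Tc0 and 6.97 to 10.9 CPM in Tc22. The part of these cells in the Scin values was not tested. Of 7 other gelsolin family genes 5 were measured, and 0 rose and 1 fell with CoA (0 to 0 and 0 to 2 in leave-one-out fits), a share near the 24.5% of all genes called. In Tc22 against Tc0 2 rose, where 2.48% of all genes did. Capg, which encodes an actin filament capping protein, rose in Tc22 from 60.1 ± 22.9 to 107.5 ± 14.9 CPM (log2 fold change 0.90, SE 0.14, edgeR adjusted p = 0.00852), a call lost when the mouse was dropped from the fit (0.283). Vill, the gene of a villin-like protein, rose in Tc22 (1.46, adjusted p = 0.00928) and fell with CoA (-1.07, adjusted p = 0.0206). Its rise was lost without the Tc22 library of mouse 725 (0.0721) or the block (0.0757). Its fall ended when either Tc0 + CoA library of mice 725 and 728, either Tc0 library of mice 715 and 725 or the block was dropped (0.0637 to 0.105).

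Set side by side, the members did not share 1 direction in any comparison. In Tc22 against Tc0, 4 of 8 rose (Cyp1a1, Cyp1b1, Tiparp and Lpxn) and 1 fell (Ahr), where 3.68% of all genes tested were called in either direction, 2.48% higher and 1.21% lower. The median log2 fold change of the 8 was 0.78, against -0.01 over all genes. In 6 of 8 the libraries of the groups did not overlap, as in 12.5% of all genes. With CoA, 3 rose (Ahr, Cyp1b1 and Scin) and 3 fell (Tiparp, Nqo1 and Lpxn), where 24.5% of all genes were called, 12.5% higher and 12.0% lower. The median of the 8 with CoA was 0.48, against -0.01 over all genes, and 6 of 8 did not overlap, as in 27.8% of all genes. The CoA count was 2 of 8 (Scin higher, Nqo1 lower) without the Tc0 + CoA or the Tc0 library of mouse 725. Genes called in all were then 1325 and 1160, instead of 3763. The members called were 4 of 8 (Cyp1b1 and Scin higher, Tiparp and Nqo1 lower) without the mouse block, with 1462 genes in all. With the compared groups alone they were 4 of the 6 that could be tested (1 higher, 3 lower), with 2962 genes in all. Both comparisons share the Tc0 libraries. Cyp1a1, Cyp1b1 and Scin passed the low-count filter through groups other than Tc0. The members were also chosen with earlier results of these data known. The shares of all genes are thus a background, and no test of the members as a set.

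The direct comparison of Tc22 with Tc0 + CoA called 7 of 8 members, 5 higher (Cyp1a1, Cyp1b1, Tiparp, Nqo1 and Lpxn) and 2 lower (Ahr and Scin), where 32.0% of all genes were called, 16.0% in each direction. It is also the test of whether a member responded differently in the comparisons with Tc0. By it the responses of Tiparp and Lpxn, opposite in sign, differed, as did those of Ahr, Nqo1, Scin, Cyp1b1 and Cyp1a1. The call of Cyp1a1 was lost in 4 of 9 leave-one-out fits and without the mouse block. The groups did not overlap in 7 of 8 members, against 41.9% of all genes. The Ahrr difference was 0.33 (95% interval -0.31 to 0.96, adjusted p = 0.411 by edgeR), and it was 0.79 (adjusted p = 0.0382) without the Tc0 + CoA library of mouse 725.

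**Figure D3:**
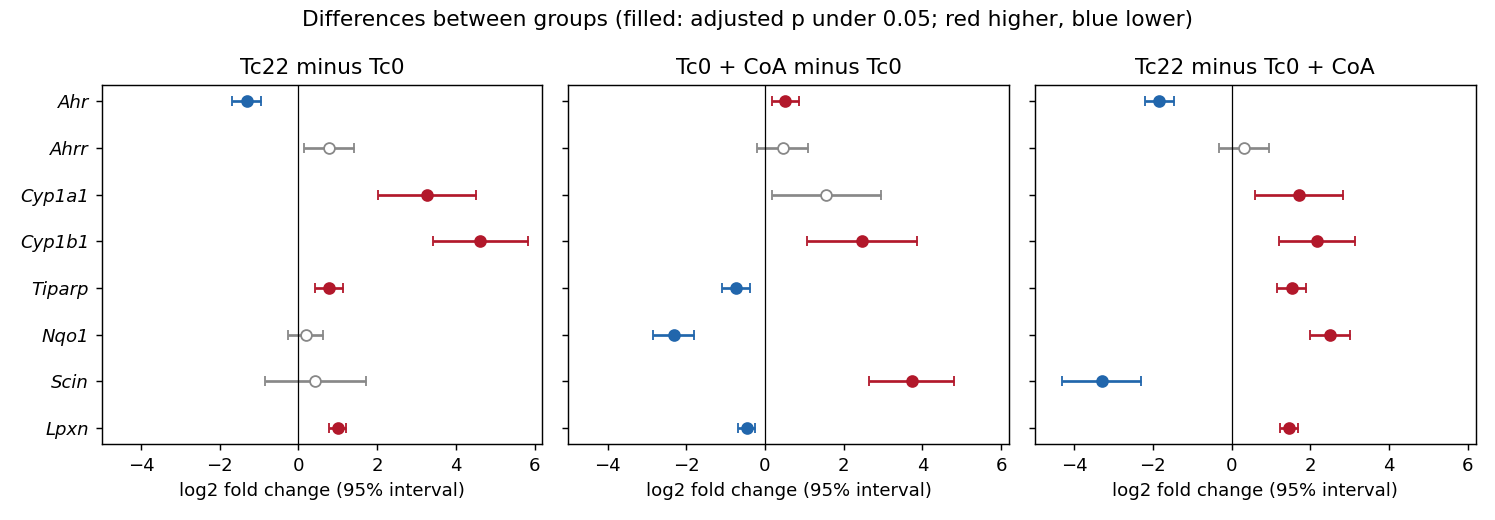
Log2 fold change with its 95% interval (horizontal axes) of the 8 genes in Tc22 against Tc0, Tc0 + CoA against Tc0 and Tc22 against Tc0 + CoA; filled points passed an adjusted p of 0.05, red higher and blue lower. Tiparp lies at 0.78 in the left panel and -0.74 in the middle one and Lpxn at 0.99 and -0.47, while Cyp1b1 is above 0 in all 3.

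Compared per length of exon (RPKM, CPM per kilobase of all annotated exons joined), Lpxn was the most abundant member in every group and Tiparp the next. Lpxn stood at 57.6 ± 7.72 RPKM in Tc0, 41.4 ± 3.27 with CoA and 114.9 ± 18.9 in Tc22 (mean ± SD, n = 3). Tiparp followed at 21.7 ± 5.46, 12.8 ± 1.22 and 37.03 ± 3.82 RPKM, without overlap. In Tc0 the order went on with Nqo1 (4.20 ± 0.143 RPKM), Ahr (1.52 ± 0.138) and Ahrr (0.552 ± 0.0644). Scin (0.0900 ± 0.0314) and Cyp1a1 (0.0872 ± 0.0103) overlapped, and Cyp1b1 (0.0183 ± 0.00899) came last.

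In Tc22 the receptor gene fell to the sixth place, at 0.608 ± 0.0156 RPKM, below Nqo1 (4.81 ± 0.788), Ahrr (0.944 ± 0.155) and Cyp1a1 (0.861 ± 0.191) and above Cyp1b1 (0.477 ± 0.0932). Ahrr and Cyp1a1 overlapped there, and Scin was last at 0.137 ± 0.126 RPKM. With CoA, Ahr (2.18 ± 0.356 RPKM) stood next after Tiparp. Below it, Scin (1.30 ± 0.645), Nqo1 (0.864 ± 0.341), Ahrr (0.770 ± 0.329), Cyp1a1 (0.285 ± 0.283) and Cyp1b1 (0.110 ± 0.0749) each overlapped with the next. The exons of Ahrr joined are much longer than its longest transcript (9441 and 5099 bases). With the transcript as the length its level was 1.02, 1.43 and 1.75 RPKM in Tc0, Tc0 + CoA and Tc22. The places and overlaps of Ahrr given above thus depend on the length used.

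Arnt, the partner of the receptor, stood at 52.2 ± 0.420 CPM in Tc0, 44.2 ± 3.12 with CoA and 49.7 ± 3.74 in Tc22. Of 4 genes of the receptor's complex (Arnt, Hsp90aa1, Hsp90ab1 and Ptges3, which encodes p23) all were measured, and edgeR called 0 in Tc22 against Tc0, where 3.68% of all genes were called (0 without the block, 0 in every leave-one-out fit, 0 at an unadjusted p under 0.05, 0 by DESeq2). The median of the 4 was -0.07. With CoA edgeR called 1 of the 4 and DESeq2 2, against 24.5% of all genes by edgeR, and 4 had an unadjusted p under 0.05. The gene edgeR called was Hsp90ab1 (0.34, SE 0.10, adjusted p = 0.0378), a call lost in 6 of 9 leave-one-out fits. These lacked 1 of the Tc0 + CoA libraries of mice 725 and 728, the Tc0 libraries of mice 715 and 725 and the Tc22 libraries of those same mice. It was also lost with the compared groups alone and without the block (adjusted p from 0.0641 to 0.249 over all these). Among 7 relatives of the receptor's own basic helix-loop-helix PAS family, Hif1a, the hypoxia factor gene, rose in Tc22 from 720 ± 144 to 1035 ± 8.62 CPM (0.54, adjusted p = 0.0435). It fell below the threshold when any Tc22 library, the Tc0 library of mouse 715 or 725 or the Tc0 + CoA library of mouse 728 was left out, without the block and with the compared groups alone (0.0714 to 0.220). With CoA edgeR called 0 of the 7 (0 without the block, 0 to 1 in leave-one-out fits, 1 at an unadjusted p under 0.05, 0 by DESeq2).

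Of 14 genes of tryptophan metabolism and transport 9 were measured, and Ido1, Ido2, Aadat, Kynu and Tph1 did not pass the low-count filter. In Tc22 cells 1 rose and 0 fell, against 2.48% and 1.21% of all genes. This was Kmo, which encodes kynurenine monooxygenase and went from 3.65 ± 1.08 to 7.56 ± 1.29 CPM (log2 fold change 1.07, SE 0.22, edgeR adjusted p = 0.0278). The call of Kmo was lost without the Tc0 + CoA library of mouse 728, the Tc0 library of mouse 715, any Tc22 library or the block (adjusted p from 0.0504 to 0.151). With CoA 1 rose and 1 fell, a share near the 24.5% of all genes called. Slc7a5, a gene of the large neutral amino acid transporter that imports tryptophan and kynurenine, went from 153 ± 26.1 to 229.9 ± 31.8 CPM (0.59, SE 0.15, adjusted p = 0.0209). Afmid, the gene of kynurenine formamidase, went from 8.39 ± 2.34 to 4.001 ± 0.553 CPM (-1.02, SE 0.22, adjusted p = 0.0104). Both calls were lost without the Tc0 + CoA libraries of mice 725 or 728 or the Tc0 library of mouse 725 (0.0549 to 0.127). The medians of the 9 were -0.04 in Tc22 and -0.12 with CoA.

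Further genes reported as targets of the receptor went both ways in each comparison. Of 19 listed, 14 were measured. In Tc22 4 rose and 2 fell, against 2.48% and 1.21% of all genes (2 to 6 and 0 to 3 in leave-one-out fits, 2 and 1 without the mouse block), with a median of 0.27. With CoA 4 rose and 5 fell, against 12.5% and 12.0% of all genes (3 to 5 and 1 to 5, and 4 and 0 without the block), with a median of -0.21. The 4 that rose were Ugt1a6a, Ugt1a7c, Asb2 and Il22 in both comparisons. Tc22 cells are named for interleukin-22, so the rise of Il22 there is not an independent result about the receptor's targets. Its cause was not tested. Asb2, which encodes a ubiquitin ligase subunit, went from 3.28 ± 1.37 CPM in Tc0 to 17.97 ± 5.21 CPM in Tc22 (2.41, SE 0.28, adjusted p = 0.00238) and 14.6 ± 5.78 CPM with CoA (2.10, SE 0.28, adjusted p = 0.00245). Both calls of Asb2 held in every leave-one-out fit. Ugt1a7c, a glucuronosyltransferase gene, went from 0.845 ± 0.0859 CPM to 1.88 ± 0.268 in Tc22 (1.14, adjusted p = 0.0203) and to 4.20 ± 0.218 with CoA (2.31, adjusted p = 0.000551). Ugt1a6a and Ugt1a7c share their last exons with the other genes of their locus, so how their reads were divided between them is uncertain. Il22 stood at 0.923 ± 0.375 CPM in Tc0, 6.40 ± 1.32 in Tc22 and 38.2 ± 30.1 with CoA, so the order of Tc22 and Tc0 + CoA was the reverse of that of Cyp1b1. With CoA its libraries held 30.1, 71.5 and 12.96 CPM, again highest in mouse 725. Its log2 fold change with CoA was 5.18, and 4.70 without that library (adjusted p = 6.92e-05 by edgeR).

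Among those that fell, Il10, an anti-inflammatory cytokine gene, went from 1.53 ± 0.465 to 0.346 ± 0.138 CPM in Tc22 (-2.12, adjusted p = 0.00852 by edgeR). The call of Il10 was lost without the Tc22 library of mouse 725 (0.0699). Gpr15, a homing receptor gene, fell in Tc22 (-1.20, adjusted p = 0.0335) and with CoA (-0.99, adjusted p = 0.0219). Its fall in Tc22 ended when any Tc22 library, the Tc0 library of mouse 725 or the block was dropped (0.0647 to 0.289), and its fall with CoA without the Tc0 + CoA or the Tc0 library of mouse 728 or the block (0.0608 to 0.136). Cyp2s1, another cytochrome P450 gene, fell with CoA (-1.57, adjusted p = 0.0200) and had 14.5 ± 5.79 CPM in Tc22 against 6.36 ± 5.02 CPM in Tc0 (adjusted p = 0.0662). Omitting the Tc0 + CoA or the Tc0 library of mouse 725 or of mouse 728, or the block, ended its fall (0.0634 to 0.159). The calls of Ugt1a6a and of Ugt1a7c in Tc22 were lost without either of the Tc0 libraries of mice 715 and 725 (0.0563 to 0.0879). That of Ugt1a6a with CoA was lost under these omissions (0.0534 and 0.0727) and without the Tc0 + CoA library of mouse 725 (0.0714). Ugt1a7c in Tc22 was not called either when the Tc22 library of mouse 715 or 725 or the block was left out (0.0590 to 0.120 over all its lost calls). The rise of Il22 in Tc22 was lost without the block (0.0728). The other 3 that fell with CoA were Gstm1 (-0.91, adjusted p = 0.0364), Entpd1 (-1.33, 0.0103) and Ikzf3 (-0.70, 0.0165), each of them lost without the Tc0 + CoA or the Tc0 library of mouse 725 and without the block. Gstm1 was lost in 7 of 9 leave-one-out fits, and Ikzf3 also without the Tc0 + CoA library of mouse 728.

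**Figure D4:**
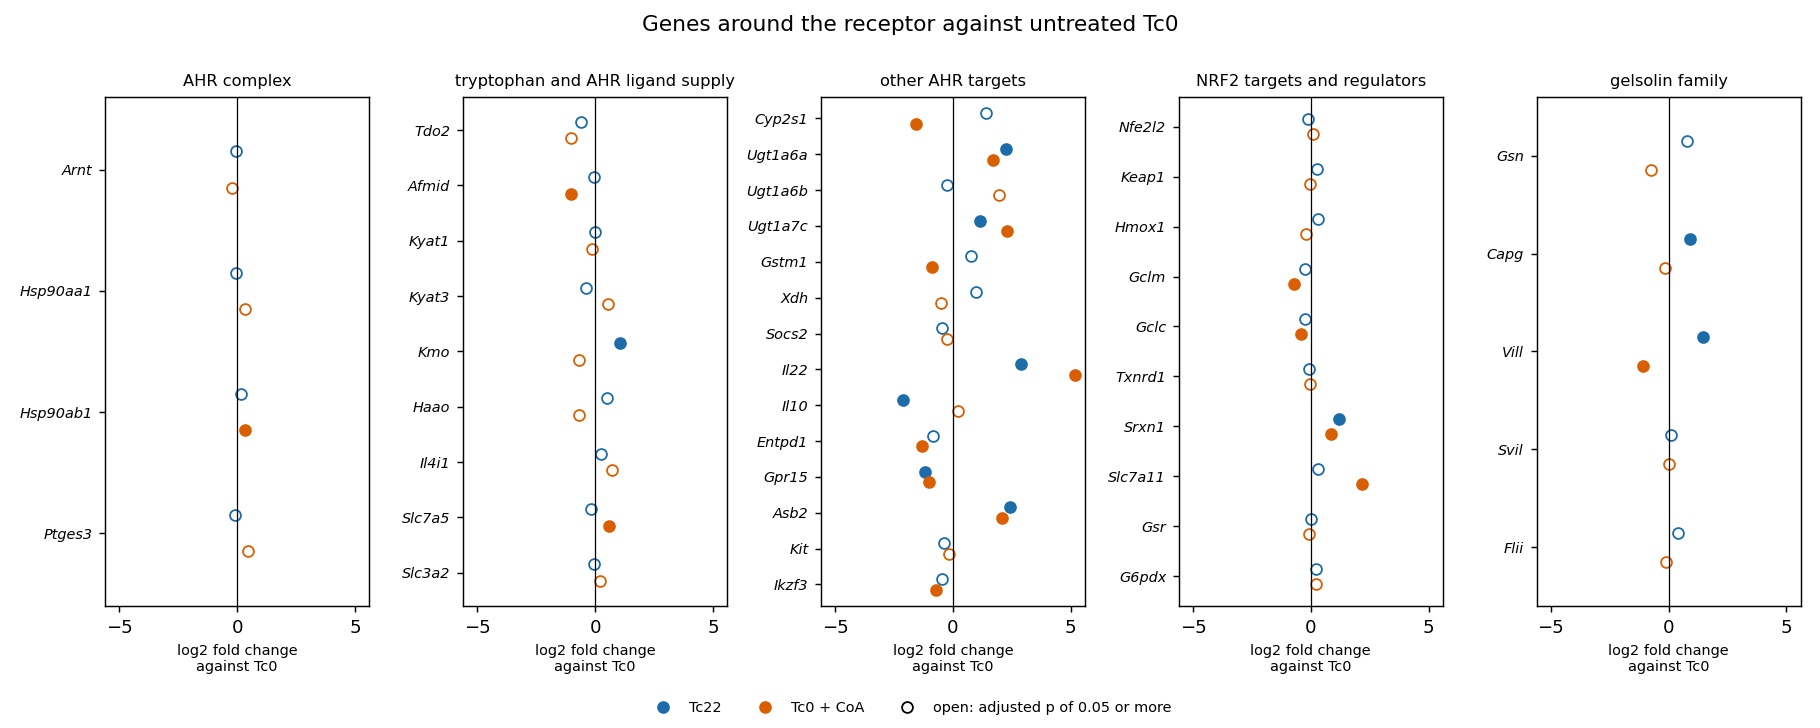
Log2 fold change against untreated Tc0 (horizontal axes) of the measured genes of 5 lists, in Tc22 (blue) and Tc0 + CoA (orange); filled points passed an adjusted p of 0.05. No gene of the receptor's complex is filled in Tc22, while Asb2 is filled at 2.41 and 2.10, and Cyp2s1 at -1.57 with CoA alone.

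Named genes (predicted genes, clone names and receptor segments left out) whose profile over the 9 libraries was closest to that of a member were ranked by the root mean square difference of their centred log2 CPM among 12529 genes with a mean of at least 1 CPM. Closest to Ahr were Cemip2, a cell surface hyaluronidase gene (difference 0.17), Galnt3, a glycosyltransferase gene (0.24), and Pmepa1 (0.27). Cemip2 had 15.3 ± 0.415 CPM in Tc0, 27.9 ± 6.23 with CoA and 7.34 ± 0.930 in Tc22. Closest to Tiparp were Cysltr2, a leukotriene receptor gene (0.13), Fuom (0.18) and Gem, a small GTPase gene (0.19), the last with 18.8 ± 2.80, 9.90 ± 1.14 and 28.2 ± 2.40 CPM. Closest to Cyp1b1 were Serpinf1 (0.67), Shroom3 (0.73) and Obsl1 (0.81), which followed it less tightly. Serpinf1, the gene of a secreted serpin, had 1.12 ± 0.325 CPM in Tc0, 2.75 ± 0.616 with CoA and 10.99 ± 2.54 in Tc22. These are descriptions of 9 libraries that share mice and groups.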

How the data were processed

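Total RNA of 9 libraries (3 groups, 3 mice) was depleted of ribosomal RNA and made into stranded libraries, per the labels' protocols. The authors deposited gene counts for all 9 libraries in 1 table and in single files, which were identical in 9 of 9 cases. GRCm38 and mm10 are the builds listed in the submitters' processing notes, and RSEM 1.3.0 and STAR 2.5.2 the tools; their roles are not listed. Strand setting, annotation release and any rounding are not given there, so overlapping genes may share reads.

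Identifiers were matched to symbols and positions in GENCODE M21 (GRCm38): 53565 of 53679 matched, and the other 114 held 0.0226% of counts. Counts were filtered with filterByExpr by group, scaled with TMM and fitted with edgeR 4.0.16 (R 4.3.3), on all 9 libraries, with terms for group and mouse (4 residual degrees of freedom). A standard error is the size of the log2 fold change over the root of its F statistic. The mouse was a block because the design text states that every mouse gave all populations. Deviations from group means of libraries from 1 mouse correlated with r from 0.0699 to 0.617 (9 pairs). P-values rest on the spread of differences between 3 animals, pooled over the 3 groups and moderated by edgeR towards the trend over all genes. The fit was tested on simulated data. RPKM used the joined exons of all transcripts. Alternatives were DESeq2 1.42.0, no block, library size alone, no filter, the compared groups alone, each library left out, and the longest transcript as length.

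The members and lists (7 of pathway genes, 8 of cell type markers) were chosen with earlier results of these data known. All members are named, then called list genes, and the 3 genes closest to Ahr, Cyp1b1 and Tiparp. Of the gamma delta T cell markers, 2 of 6 symbols were not matched. Some listed genes are not reported here, and the counts and sums of their lists are over the others.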

Additional observations from a re-analysis of the deposited data

How the results depend on the processing

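Without the replicate block for mouse, 4, 4 and 6 members were called in Tc22 against Tc0, Tc0 + CoA against Tc0 and Tc22 against Tc0 + CoA, instead of 5, 6 and 7, and 120, 1462 and 2097 genes in all instead of 565, 3763 and 4913. In Tc22 against Tc0, DESeq2 called 953 genes and the fit without a low-count filter 1275. Leaving out 1 library in turn gave 4 to 6 called members in Tc22 against Tc0, 2 to 6 in Tc0 + CoA against Tc0 and 6 to 8 in Tc22 against Tc0 + CoA. All genes called then ranged from 201 to 2669, 1160 to 4356 and 2185 to 5913. The largest, 2669 and 5913, came without the Tc0 library of mouse 728; the cause was not tested. Over 334 log2 fold changes of members under alternatives, 294 kept their direction and call, 31 lost the call, 5 gained it and 4 turned. The ones that turned were not called there: Scin in Tc22 against Tc0 ranged from -0.42 to 0.95 with 1 library left out, and was -0.21 without the Tc0 and -0.42 without the Tc22 library of mouse 715. Ahrr ranged from -0.011 to 0.78 in Tc0 + CoA against Tc0 and from -0.0044 to 0.79 in Tc22 against Tc0 + CoA, with the lowest values without the Tc0 + CoA libraries of mouse 725 and mouse 715. Cyp1a1 and Cyp1b1 could not be tested with CoA in the compared groups alone, being under the low-count filter there. Depth limits Cyp1a1, Cyp1b1 and Scin in Tc0, at 2 to 10 counts per library.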
